A study of Mus musculus with 4 samples.

Results

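Liver RNA was measured on 4 one-colour Agilent arrays, and the 36 genes described here are those of fatty acid oxidation and the targets of PPAR alpha. They were chosen by name: Ppara itself, the carnitine shuttle, the mitochondrial and peroxisomal enzymes of beta-oxidation, the acyl-CoA thioesterases, the microsomal Cyp4a hydroxylases, Bdh1, Pdk4 and Vnn1. All 36 were matched, through the transcript accessions of the probes, among 23462 genes with a probe, and all 36 were well above background on each of the 4 arrays. By compartment, 20 act in mitochondria, 9 in peroxisomes and 3 in the endoplasmic reticulum (microsomal), and 4 act elsewhere or in several places.

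The livers came from 24-wk-old male mice on a C57BL/6 background. F/F mice (Lpiat1F/F) carry the floxed Lpiat1 allele without Cre. LKO mice (Alb-Cre; Lpiat1F/F) carry the same floxed allele with Cre under the promoter of albumin, a hepatocyte gene. The study calls the knockout specific to hepatocytes, and the gene in other liver cells was not examined here. Lpiat1, also called Mboat7, encodes an acyltransferase that loads polyunsaturated acyl chains onto lysophosphatidylinositol. Each genotype was kept on chow or on a high fat diet (HFD) over 18 weeks from 6 weeks of age, with 1 array for each of the 4 combinations, and whether the RNA was pooled over mice is not given in the sources used here. Because no condition was repeated, the differences below have no replicate check and no test.

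The study asked why loss of this enzyme leads to fatty liver, and ran the arrays on both diets to follow changes that go with liver injury. By qPCR in a separate experiment with replicated F/F and LKO livers, it reported no significant change in genes of beta-oxidation. For the oxidation genes the design gives 4 differences: LKO minus F/F on chow, LKO minus F/F on HFD, HFD minus chow in F/F and HFD minus chow in LKO. The genotype differences on the 2 diets share no array, whereas each of them shares an array with each diet difference. Values are the signal of the brightest probe of a gene divided by the 75th percentile of all spots of its array that are not controls (called relative signal), and differences are on the log2 scale. The 75th percentile lay between 213 and 296 intensity units, between 53.0% and 57.0% of the spots were well above background, no spot was saturated, and all arrays lay on 1 slide read in 1 scan. Where an array carries the same probe in several spots, the SD of the difference of a pair of them was 0.087 (log2), a within-array error that leaves out the difference between mice. Mboat7, with 1 probe that may lie inside or outside the floxed exons, was at 4.97 (F/F) and 4.04 (LKO) with chow, then 4.49 (F/F) and 3.72 (LKO) with HFD.

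Fatty acids enter mitochondria as carnitine esters and are shortened there in repeated rounds of dehydrogenation, hydration, a further dehydrogenation and thiolysis, with the electrons passed on through the electron transferring flavoprotein. Peroxisomes shorten very long chains and dicarboxylic acids by a similar set of steps, and the Cyp4a enzymes of the endoplasmic reticulum start the alternative route of omega-oxidation. PPAR alpha is the nuclear receptor that, with RXR as partner, senses fatty acids in hepatocytes and drives many of these genes, most strongly in fasting.

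PPAR alpha with RXR binds a pair of AGGTCA half-sites in the same orientation with 1 base between them. The RefSeq table of promoter windows (GRCm38.p6, 250 bases before to 50 bases after the start) holds 30 windows of 28 of the 36 genes. The other 8, among them Cyp4a10, Cyp4a14, Cyp4a31 and Vnn1, have no window there and were not searched. Shown here are the 250 bases before the start, 5′ to 3′ on the strand of the gene, of 3 of the genes that differed most (Pdk4, Ehhadh and Acot1), of 2 neighbours of Acot1 on the same strand of the chromosome (Acot2 and Acot4) and of Cpt1a, whose signal changed little. Capitals mark the half-site on either strand or a match at 10 or more of the 12 bases of the pair.

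Pdk4 (chr6:5496279-5496528, minus strand): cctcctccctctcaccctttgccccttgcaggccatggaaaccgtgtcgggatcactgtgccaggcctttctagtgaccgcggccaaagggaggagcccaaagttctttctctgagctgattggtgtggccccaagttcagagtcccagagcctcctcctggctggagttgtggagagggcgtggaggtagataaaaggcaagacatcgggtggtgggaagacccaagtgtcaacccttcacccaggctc
Ehhadh (chr16:21787835-21788084, minus strand): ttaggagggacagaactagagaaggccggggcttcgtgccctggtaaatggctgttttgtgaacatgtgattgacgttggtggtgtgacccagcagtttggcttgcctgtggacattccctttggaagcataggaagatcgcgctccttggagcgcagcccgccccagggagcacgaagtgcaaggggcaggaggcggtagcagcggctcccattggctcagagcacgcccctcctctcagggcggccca
Acot1 (chr12:84009252-84009501, plus strand): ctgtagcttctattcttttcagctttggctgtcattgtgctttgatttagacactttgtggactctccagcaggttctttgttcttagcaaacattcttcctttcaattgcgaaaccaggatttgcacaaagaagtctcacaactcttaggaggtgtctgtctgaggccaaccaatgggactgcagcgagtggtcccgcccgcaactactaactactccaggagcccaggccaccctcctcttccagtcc
Acot2 (chr12:83987611-83987860, plus strand): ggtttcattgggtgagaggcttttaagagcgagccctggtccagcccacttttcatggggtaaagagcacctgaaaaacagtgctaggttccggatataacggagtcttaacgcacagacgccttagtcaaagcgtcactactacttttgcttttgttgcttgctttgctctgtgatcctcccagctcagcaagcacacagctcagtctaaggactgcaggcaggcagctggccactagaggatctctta
Acot4 (chr12:84038129-84038378, plus strand): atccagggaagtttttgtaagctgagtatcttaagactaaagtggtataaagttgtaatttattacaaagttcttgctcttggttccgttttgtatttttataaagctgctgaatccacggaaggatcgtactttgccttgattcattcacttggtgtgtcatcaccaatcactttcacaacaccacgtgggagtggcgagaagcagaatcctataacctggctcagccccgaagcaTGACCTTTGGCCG
Cpt1a (chr19:3323051-3323300, plus strand): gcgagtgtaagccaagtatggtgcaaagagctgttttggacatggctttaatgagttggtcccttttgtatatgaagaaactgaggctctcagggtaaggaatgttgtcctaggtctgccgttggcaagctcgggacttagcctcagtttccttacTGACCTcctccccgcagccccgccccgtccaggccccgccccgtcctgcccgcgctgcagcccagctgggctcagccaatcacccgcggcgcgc

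Neither the pair itself nor the pair with any base at the fourth place of each half-site was present on either strand of the members' 30 windows. Over all 32851 windows, 13 (0.0396%) held the pair and 125 (0.381%) the looser form. A single half-site stood in 6 of the 30 windows (20%), those of Acadm, Acadvl, Acot3, Acot4 and Cpt1a, against 16.3% of all windows. The windows of Acot3 overlap, so the same half-site is counted more than once. By gene, 5 of 28 members held a half-site, against 4900 of 27025 genes. A match at 10 or more of the 12 bases, which can overlap a half-site as it does in Acot4, stood in 3 of the 30 (10%; Acot4, Etfa and Slc25a20), against 3.86% of all windows. The search covers these letters in a window of 300 bases and says nothing of sites elsewhere.

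The members did not move as 1 block (map of all 36 genes by role). In all, 25 stayed within 1.5-fold in each of the 4 comparisons, and these include the 4 acyl-CoA dehydrogenases, the trifunctional protein, the 3 genes of electron transfer and the 5 auxiliary isomerases and reductases. The other 11 are Ppara, Pdk4, Hadh, Bdh1, Ehhadh, Acot1, Acot2, Cyp4a10, Cyp4a14, Cyp4a31 and Vnn1. Among the 36, the median difference of LKO minus F/F was -0.04 on chow, where that of all 14981 genes with a value was 0.00, and -0.24 on HFD, where that of all 15528 genes was -0.03. For HFD minus chow the members had a median of -0.06 in F/F (-0.02 over 15358 genes) and of -0.20 in LKO (-0.07 over 15242 genes). In whole liver, fewer cells of a type and less RNA per cell cannot be told apart.

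**Figure D1:**
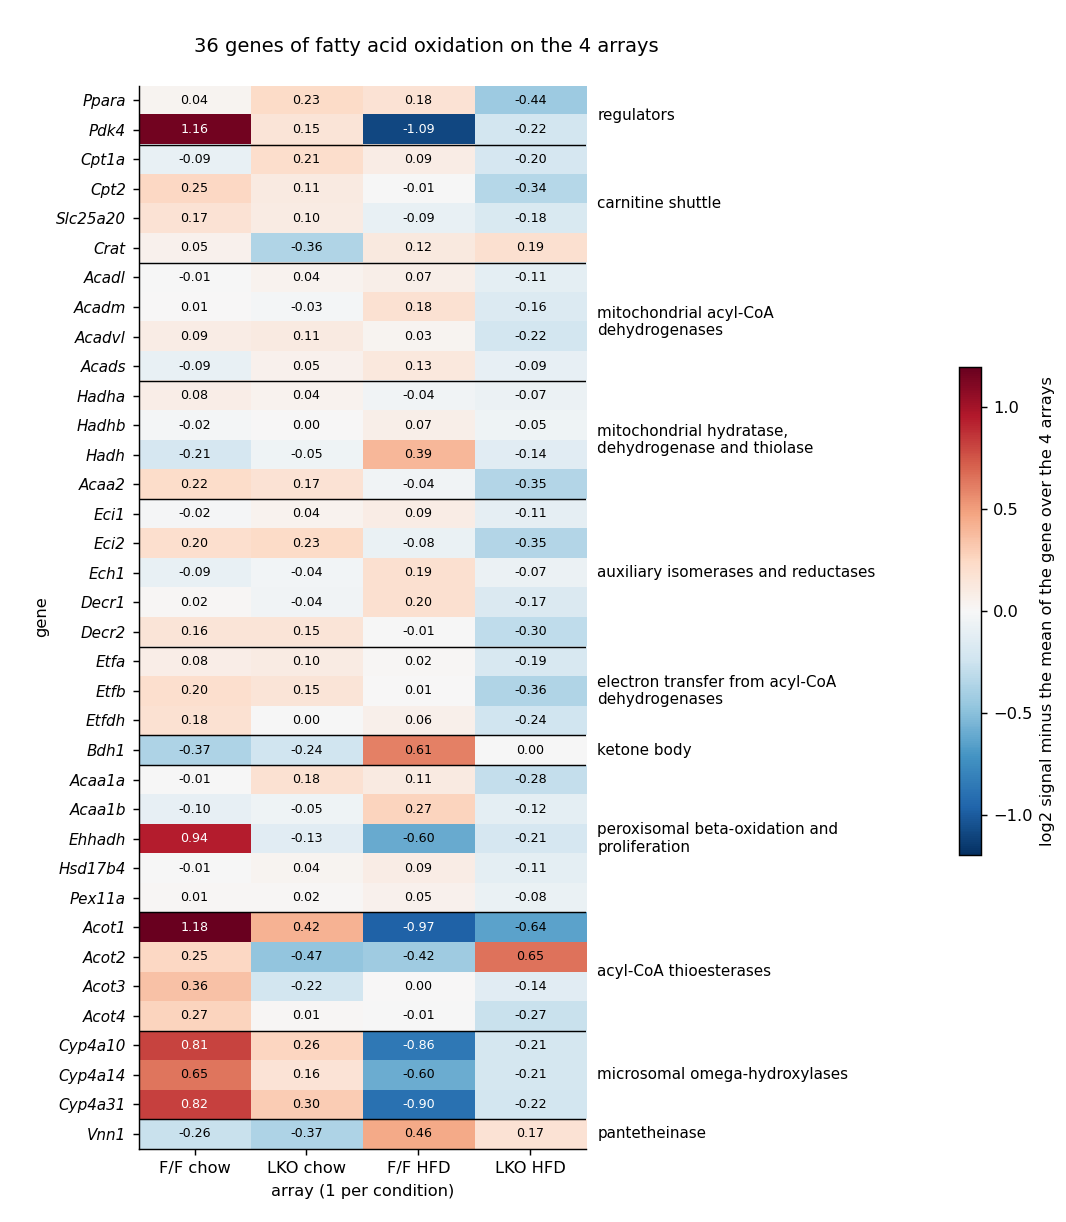
Log2 signal of each of the 36 genes on the 4 arrays (columns, 1 array per condition) minus the mean of the gene over the 4 arrays, with genes as rows in the order of their roles. Most rows are pale, whereas Pdk4, Ehhadh, Acot1, Cyp4a10, Cyp4a14 and Cyp4a31 are red on F/F chow and blue on F/F HFD.

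On chow, no member was higher by 2-fold or more in LKO (1.11% of all genes were), and 2 were at least 2-fold lower, Pdk4 and Ehhadh, where 1.03% of all genes were. At 1.5-fold, 0 members were higher (3.52% of all genes) and 4 were lower, the same pair with Acot1 and Acot2 (3.46% of all genes). By any amount, 20 of the 36 were lower, against 49.3% of all genes. On HFD, 1 member was at least 2-fold higher in LKO, Acot2 (2.36% of all genes), and 0 were at least 2-fold lower (1.91%). At 1.5-fold, 4 were higher on HFD, namely Acot2, Pdk4, Cyp4a31 and Cyp4a10 (8.07% of all genes), and 2 were lower, Ppara and Bdh1 (6.08%). By any amount, 28 of the 36 were lower in LKO on HFD, against 54.1% of all genes.

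Between diets in F/F, 0 members were at least 2-fold higher on HFD (5.21% of all genes) and 6 were at least 2-fold lower (2.94%). These 6 are Pdk4, Acot1, Cyp4a31, Cyp4a10, Ehhadh and Cyp4a14. At 1.5-fold, 3 members were higher on HFD in F/F, Bdh1, Vnn1 and Hadh (13.2% of all genes), and 7 were lower, the 6 with Acot2 (9.6%). In LKO, 1 member was at least 2-fold higher on HFD, Acot2 (8.12% of all genes), and 1 was at least 2-fold lower, Acot1 (4.07%). At 1.5-fold the numbers in LKO were 1 higher (15.4% of all genes) and 2 lower, Acot1 and Ppara (11.7%). By any amount, 19 members were lower on HFD in F/F (52.2% of all genes) and 31 in LKO (56.5%). These last 2 counts depend on how the arrays are brought to one scale: with the scaling factors of the authors' own table the median of all genes moved from -0.02 to 0.11 in F/F and from -0.07 to 0.07 in LKO, and 15 and 22 members were then lower.

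**Figure D2:**
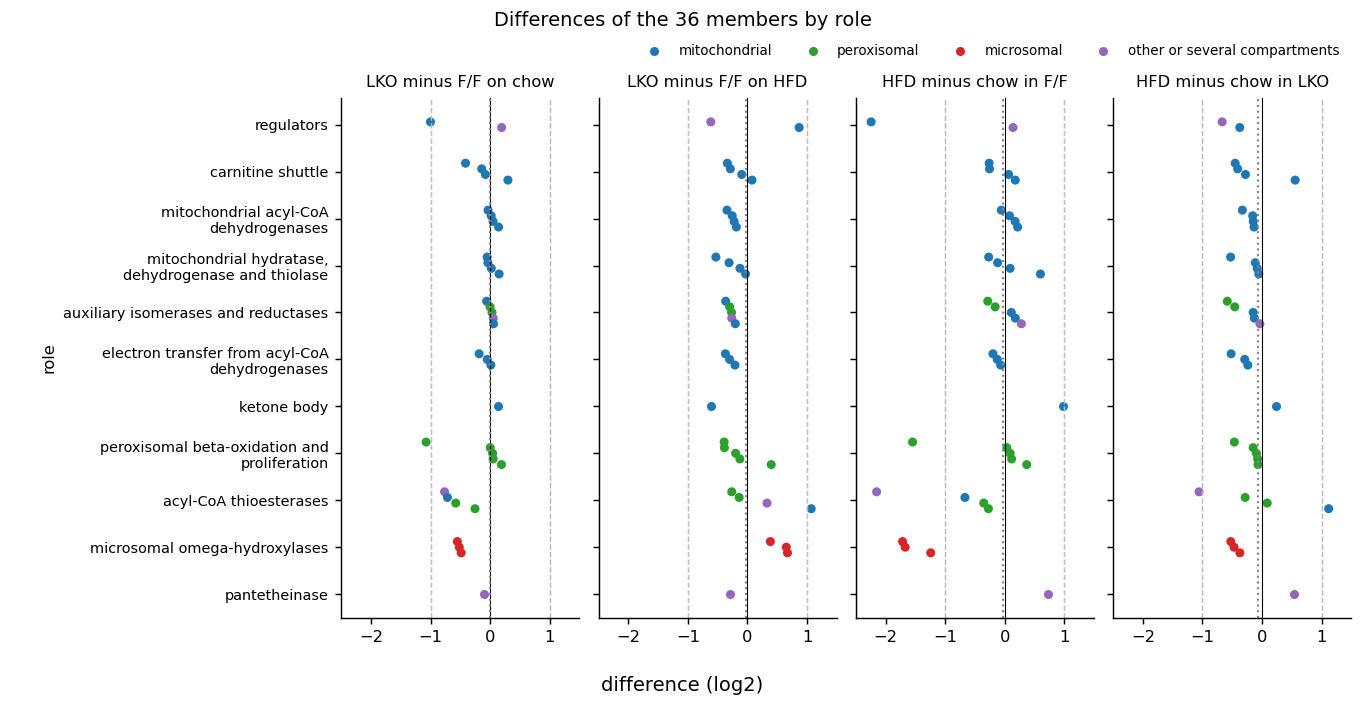
Difference (log2, x axis) of each of the 36 members in the 4 comparisons (panels), 1 point per gene, by role (y axis) and coloured by compartment. Dashed lines stand at 2-fold, the solid line at 0 and the dotted line at the median of all genes, and the microsomal hydroxylases lie below 0 on chow, above 0 on HFD and farthest below 0 for the diet in F/F.

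Ppara, the receptor, had a relative signal of 52.4 (F/F) and 59.9 (LKO) with chow, then 57.8 (F/F) and 37.7 (LKO) with HFD. The LKO HFD array was the low one, 1.53-fold below F/F on that diet (log2 difference -0.62) and 1.59-fold below LKO on chow (-0.67). On chow LKO was higher by 0.19. The dimmer of its 2 probes gave -0.54 for LKO minus F/F on HFD and 0.23 on chow.

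Pdk4 encodes the kinase that switches off pyruvate dehydrogenase, so that fatty acids rather than glucose are burned. Its relative signal was 7.71 (F/F) and 3.85 (LKO) with chow, then 1.63 (F/F) and 2.97 (LKO) with HFD. F/F chow stood highest and F/F HFD lowest, with both LKO arrays between them. Its genotype difference (LKO minus F/F) was -1.002 on chow, and LKO was 1.83-fold higher on HFD, and F/F was 4.73-fold lower on HFD than on chow, the largest difference of any member (log2 difference -2.24). In LKO the diet difference was -0.37.

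Ehhadh is the bifunctional enzyme of the peroxisome, with hydratase and dehydrogenase activity in one chain. It measured 56.2 (F/F) and 26.7 (LKO) with chow, then 19.2 (F/F) and 25.4 (LKO) with HFD. The F/F chow array alone was high, and the other arrays lay between 19.2 and 26.7. LKO was 2.11-fold lower than F/F on chow (log2 difference -1.08) and 1.32-fold higher on HFD (0.40). The diet difference was -1.55 in F/F and -0.07 in LKO.

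The Cyp4a hydroxylases oxidise the methyl end of fatty acids and are widely used as reporters of PPAR alpha. Cyp4a10 had relative signals of 57.7 (F/F) and 39.4 (LKO) with chow, then 18.1 (F/F) and 28.5 (LKO) with HFD. Cyp4a31 had 146, 102, 44.5 and 71.0 on the arrays in that order. Cyp4a14 had 4.04, 2.88, 1.71 and 2.23. In all 3 the chow arrays stood above the HFD arrays, and the order F/F chow, LKO chow, LKO HFD, F/F HFD from highest to lowest was shared. LKO minus F/F was -0.55, -0.52 and -0.49 on chow for Cyp4a10, Cyp4a31 and Cyp4a14, and 0.65, 0.67 and 0.38 on HFD. HFD minus chow in F/F was -1.67, -1.71 and -1.24, and in LKO -0.47, -0.52 and -0.37. These genes are close relatives, and the probes of one may also take up transcripts of another, so the 3 are not independent observations.

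Acyl-CoA thioesterases release free fatty acid and coenzyme A. The genes Acot1 to Acot4 stand next to each other, with the starts of Acot2 and Acot1 21641 bases apart and those of Acot4 and Acot3 13765 bases apart. Acot1, the cytosolic enzyme, had relative signals of 79.3 (F/F) and 46.7 (LKO) with chow, then 17.9 (F/F) and 22.4 (LKO) with HFD. The HFD arrays were below both chow arrays, by 4.44-fold in F/F and 2.08-fold in LKO. Between genotypes the difference was -0.77 on chow and 0.33 on HFD.

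Acot2, the mitochondrial enzyme of this family, had 3.77 (F/F) and 2.30 (LKO) with chow, then 2.38 (F/F) and 4.99 (LKO) with HFD. It was the only member highest on the LKO HFD array apart from Crat, and its order differed from that of its neighbour Acot1. LKO was 1.64-fold lower than F/F on chow and 2.10-fold higher on HFD. HFD minus chow was -0.67 in F/F and 1.12 in LKO. The peroxisomal Acot3 and Acot4 stayed within 1.5-fold by their brighter probes, with LKO minus F/F of -0.58 and -0.25 on chow and -0.14 and -0.26 on HFD. For Acot3 the dimmer probe gave -1.12 on chow and -0.97 on HFD, so its size, though not its direction, depends on the probe. The Acot genes are similar in sequence, and a probe of one may take up transcripts of another.

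**Figure D3:**
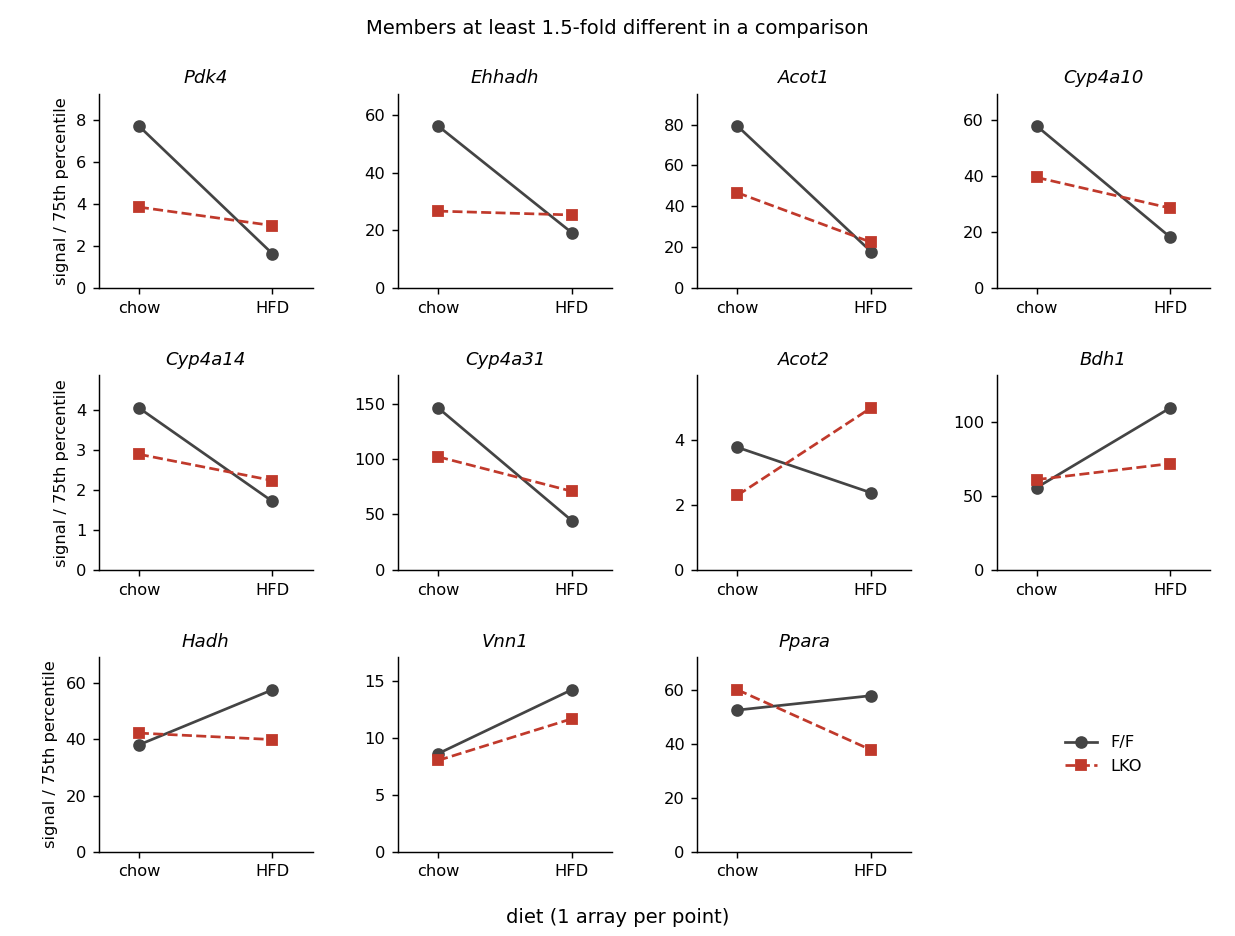
Relative signal (y axis, signal divided by the 75th percentile of the array) of the 11 members at least 1.5-fold different in a comparison, on chow and HFD (x axis), for F/F (circles, solid) and LKO (squares, dashed), 1 array per point. In Pdk4, Ehhadh, Acot1, Acot2 and the 3 Cyp4a genes the lines cross, with F/F above LKO on chow and below it on HFD. In Ppara, Bdh1 and Hadh they cross the other way.

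The 6 members at least 2-fold lower on HFD in F/F shared 1 order: F/F chow was the highest of the 4 arrays and F/F HFD the lowest. This order was noticed in the values and has no test. It was found in 8.83% of the 13981 genes well above background on all 4 arrays. Of these genes, 307 were at least 2-fold lower on HFD in F/F, and 120 of the 307 (0.858% of the 13981) had this order. The 6 were picked at that same fold, so their distance between the 2 arrays was set by the choice. The 6 were found again under each of 5 other ways of correcting, scaling or combining the probes, and Hadha joined them under 2 of these. Opposite genotype differences on the 2 diets, each at least 1.5-fold, were measured in 2 members, Pdk4 and Acot2, and in 0.848% of the 14619 genes with a value on both diets.

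**Figure D4:**
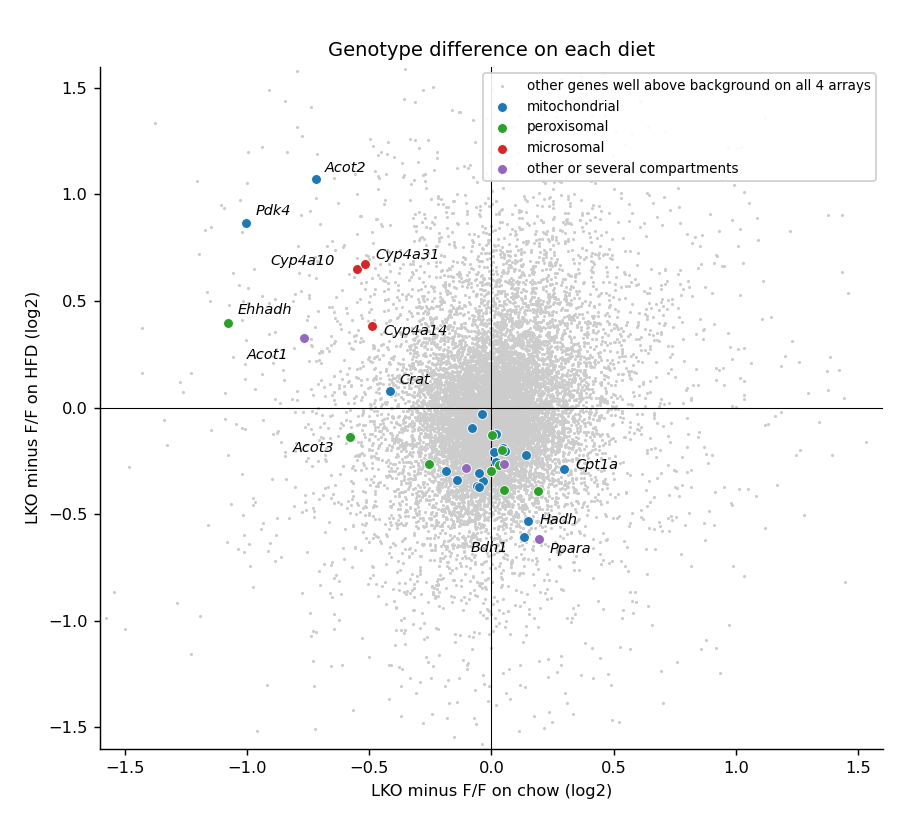
LKO minus F/F on chow (x axis, log2) against LKO minus F/F on HFD (y axis, log2), 2 differences with no array in common, for the 36 members by compartment (coloured) and other genes well above background on all 4 arrays (grey, with 113 genes beyond the axes not drawn). Pdk4, Acot2, Ehhadh, Acot1 and the 3 Cyp4a genes lie in the upper left, and most other members lie just below the horizontal line at 0. For Pdk4, Ehhadh, Acot1 and the Cyp4a genes that place follows from their order, with F/F chow highest and F/F HFD lowest.

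The F/F HFD array, lowest in these 6, also differed from the others in genes of the clock and of blood. Arntl (the clock activator BMAL1) had relative signals of 0.654 (F/F) and 0.479 (LKO) with chow, then 0.118 (F/F) and 0.601 (LKO) with HFD. Dbp, which peaks at the opposite time of day, had 27.2, 28.6, 54.7 and 23.4. In both, F/F HFD was the array that differed from the rest, low for Arntl and high for Dbp. Of the 3 genes listed for the phase of Arntl, 2 had a value on HFD. Their LKO minus F/F on that diet was 2.35 for Arntl and only 0.02 for the other gene. Of the 8 listed clock genes of that opposite phase, 8 were higher on HFD in F/F (median 0.22) and 8 were lower in LKO than in F/F on HFD (-0.69). All 8 were also lower on HFD than on chow in LKO (-0.41), so the LKO HFD array differed from chow as well. On chow, 6 were higher and 2 lower in LKO. The summed relative signal of 5 red blood cell genes was 172 (F/F) and 171 (LKO) with chow, then 343 (F/F) and 174 (LKO) with HFD, with 4 of the 5 well above background on each array. On HFD all 4 of these were lower in LKO than in F/F, and between diets in F/F 3 were higher on HFD and 1, Alas2, was lower. That of 9 exocrine pancreas genes was 23.7, 14.2, 12.5 and 46.3, with 8 of the 9 well above background on each. All 8 were lower in LKO on chow (median -0.90) and higher in LKO on HFD (1.79). Between diets all 8 were lower on HFD in F/F (-0.75) and higher on HFD in LKO (2.05). The part of the time of sampling, of blood or of pancreatic tissue in these differences was not tested.

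Values of other genes that follow fasting and feeding are given beside those of Pdk4. Pck1, the enzyme that commits carbon to gluconeogenesis, was at 239 (F/F) and 243 (LKO) with chow, then 218 (F/F) and 156 (LKO) with HFD. Srebf1, the lipogenic transcription factor induced by insulin, was at 27.8, 24.6, 53.2 and 31.6. Of the 9 genes listed as raised by fasting, of which Cpt1a and Pdk4 are members and Fgf21 and Ppargc1a are among the related genes below, 8 were lower in LKO than in F/F on HFD, with a median of -0.31. On chow 5 of the 9 were lower in LKO (median -0.02), and between diets in F/F 4 were lower on HFD (median 0.05). Of the 10 raised by feeding, 7 were higher in LKO on HFD (median 0.09), 7 were higher in LKO on chow (0.33) and 9 were higher on HFD in F/F (0.18). Pdk4 was lower in the last 2 of these comparisons, and the part of feeding state was not tested.

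In the carnitine shuttle and the mitochondrial steps that follow it, differences were mostly small. Of all 20 mitochondrial members, 17 were lower in LKO on HFD and 3 were higher, Acot2, Pdk4 and Crat. Cpt1a, the carnitine palmitoyltransferase that controls entry, had relative signals of 49.8 (F/F) and 61.3 (LKO) with chow, then 56.3 (F/F) and 46.2 (LKO) with HFD. The genotype difference was 0.30 on chow and -0.29 on HFD. Cpt2, which reforms the acyl-CoA inside, differed by -0.14 and -0.34, and the carrier Slc25a20 by -0.08 and -0.10.

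Crat, which makes acetylcarnitine, was lowest on LKO chow, with 11.3, 8.50, 11.9 and 12.5 in the usual order of arrays. Its LKO minus F/F difference was -0.41 on chow and 0.08 on HFD, which made it the single gene among the 25 within 1.5-fold that was not lower in LKO on HFD. Its second probe gave -0.47 and 0.06.

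Acadm, the medium-chain dehydrogenase, had 106 (F/F) and 104 (LKO) with chow, then 120 (F/F) and 94.6 (LKO) with HFD. On HFD the 4 dehydrogenases were all lower in LKO, between -0.34 (Acadm) and -0.19 (Acadl), and on chow they lay between -0.04 and 0.14. Hadha, the alpha subunit of the trifunctional protein, had 4.70, 4.58, 4.32 and 4.23, and its differences lay between -0.12 and -0.03. Its beta subunit Hadhb differed by -0.13 in LKO on HFD, and its 2 probes had opposite signs on chow (0.02 and -0.10).

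Hadh, the dehydrogenase of the short-chain rounds, was the mitochondrial spiral enzyme that differed most. It had 38.0 (F/F) and 42.2 (LKO) with chow, then 57.7 (F/F) and 39.9 (LKO) with HFD. Here F/F HFD alone was high, 1.52-fold above F/F chow and 1.44-fold above LKO on the same diet. Acaa2, the mitochondrial thiolase, was lower in LKO on HFD by a log2 difference of -0.31 and on chow by -0.05.

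The auxiliary enzymes handle double bonds of unsaturated chains. Eci1, Eci2, Ech1, Decr1 and Decr2 all were lower in LKO on HFD, between -0.37 (Decr1) and -0.20 (Eci1), and on chow between -0.06 and 0.06. Etfa, Etfb and Etfdh, which carry electrons from the dehydrogenases to ubiquinone, were at -0.21, -0.37 and -0.30 on HFD and at 0.01, -0.05 and -0.19 on chow.

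Bdh1, which turns acetoacetate into beta-hydroxybutyrate, had 55.5 (F/F) and 60.9 (LKO) with chow, then 109 (F/F) and 71.7 (LKO) with HFD. Both HFD arrays were above both chow arrays, and F/F HFD was the highest. F/F was 1.97-fold higher on HFD than on chow, LKO 1.18-fold, and LKO was 1.52-fold below F/F on HFD (log2 difference -0.61). Its other probe gave 1.08, 0.29 and -0.62 for these differences.

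Of the peroxisomal members, only Ehhadh reached 1.5-fold in a comparison by its brightest probe. Acot3, at -0.58 for LKO minus F/F on chow, and Eci2, at -0.58 for HFD minus chow in LKO, were close to that fold. The dimmer probe of Acot3 gave -1.12 for LKO minus F/F on chow. The thiolases Acaa1a and Acaa1b, near copies of each other, were both at -0.39 for LKO minus F/F on HFD, and at 0.19 and 0.05 on chow. The dimmer probe of Acaa1a gave -0.23 on HFD and 0.13 on chow, and a probe of one may take up transcripts of the other. Hsd17b4, the other bifunctional enzyme, was at -0.20 and 0.04. Pex11a, a membrane protein that promotes peroxisome division and a target of PPAR alpha, was at -0.13 and 0.00, and its relative signal lay between 137 and 149 on all arrays. Vnn1, the pantetheinase, followed the diet: it had 8.63 (F/F) and 8.04 (LKO) with chow, then 14.3 (F/F) and 11.7 (LKO) with HFD.

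Of the 36, 13 were highest on F/F HFD (20.6% of the 13981 genes) and 23 were lowest on LKO HFD (39.8%). Both HFD arrays lay above both chow arrays for 3 members, Crat, Bdh1 and Vnn1 (28.1%), and below them for 16 (38.8%). The LKO HFD array was also the one with the lowest hepatocyte signal. The summed relative signal of 10 hepatocyte markers, all well above background on each array, was 4509 (F/F) and 4592 (LKO) with chow, then 3576 (F/F) and 3203 (LKO) with HFD. On HFD, 8 of the 10 were lower in LKO than in F/F, with a median of -0.16, and Alb was at -0.16. The part of hepatocyte content in the lower values of the members was not tested. Sums over 11 macrophage markers were 80.4, 71.7, 92.4 and 103 in the same order, with 9 of the 11 higher in LKO on HFD (median 0.36) and 7 of 10 with a value higher in LKO on chow, although Marco was lower in LKO on both diets. All 7 hepatic stellate cell markers were higher in LKO on both diets. On chow, however, Acta2 (0.01), Pdgfrb (0.05) and Dcn (0.07) were within the SD of replicate spots of 0.087. Sums over the 7 were 69.0, 72.9, 91.0 and 106, of which Dcn alone made up 60.6, 63.7, 78.3 and 90.4.

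For 13 members more than 1 probe was available, 23 had 1, and no probe of a member was printed more than once. The range between the probes of a gene had a median of 0.06 on chow and 0.10 on HFD for LKO minus F/F, and of 0.08 in F/F and 0.06 in LKO for HFD minus chow. All 13 had probes of one sign for LKO minus F/F on HFD. Opposite signs were found for Hadhb on chow, for Etfa for the diet in F/F and for Acot3 and Hadhb for the diet in LKO.

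**Figure D5:**
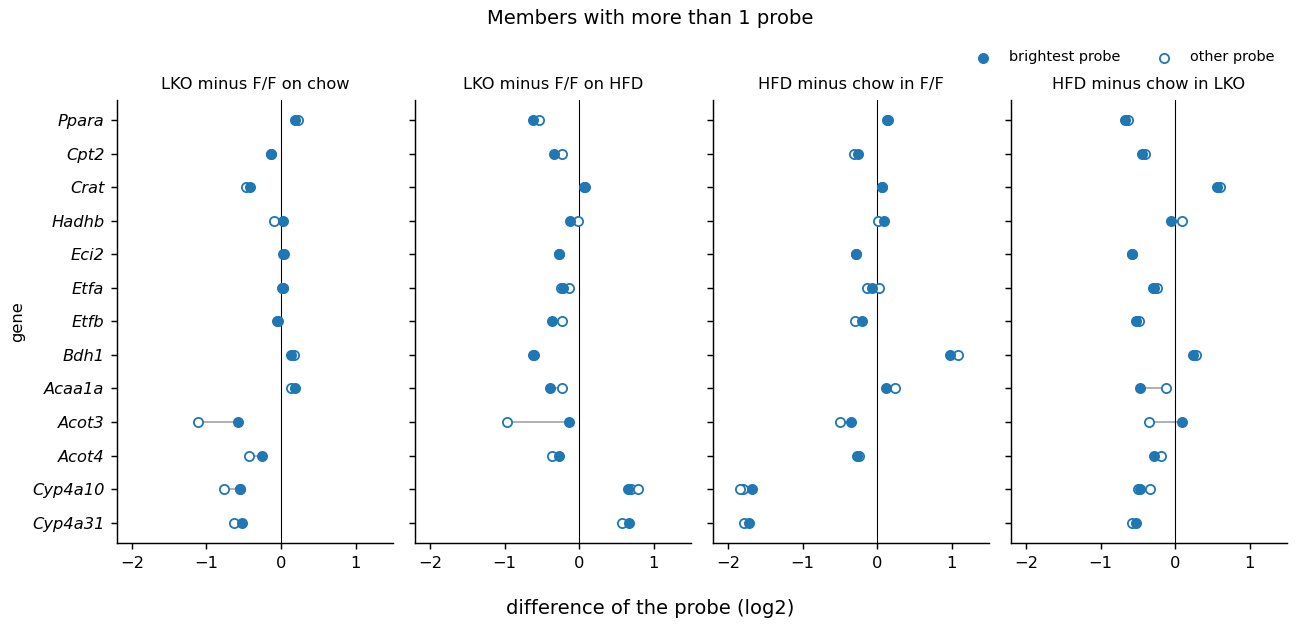
Difference (log2, x axis) given by each probe of the 13 members with more than 1 probe (y axis) in the 4 comparisons (panels), with the brightest probe filled and the others open, joined by a line. The probes lie farthest apart for Acot3, by 0.83 for LKO minus F/F on HFD, and the 2 probes of Acaa1a give -0.47 and -0.13 for HFD minus chow in LKO.

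Beyond the members, 107 related genes with a probe (ketogenesis, activation and uptake, other mitochondrial and peroxisomal steps, other Cyp4 genes, other PPAR alpha targets, receptors and coactivators) were examined. For LKO minus F/F on HFD, 78 of the 105 with a value were lower (54.1% of all genes were), with a median of -0.20. On that diet 4 were at least 2-fold higher (2.36% of all genes) and 0 at least 2-fold lower (1.91%). On chow, 46 of 102 were lower (49.3% of all genes), with a median of 0.03. There, 3 were at least 2-fold higher (1.11% of all genes) and 0 at least 2-fold lower (1.03%).

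Fgf21, a hepatic hormone and target of the receptor, had 1.28 (F/F) and 1.15 (LKO) with chow, then 1.96 (F/F) and 1.33 (LKO) with HFD, so F/F HFD was the high array. Angptl4, an inhibitor of lipoprotein lipase, had 122, 126, 97.1 and 83.7. Neither followed the order of Pdk4 and the Cyp4a genes. Of the 102 related genes well above background on all arrays, 4 had F/F chow highest and F/F HFD lowest, against 8.83% of the 13981 genes. These 4 are named here after their values were seen. Acot5, a peroxisomal thioesterase, had 4.03, 2.24, 1.01 and 1.10. Hacl1, a lyase of peroxisomal alpha-oxidation, had 81.7, 57.4, 37.3 and 41.0. Plin5, a lipid droplet protein, had 105, 95.7, 64.5 and 75.4, and Ncoa1, a coactivator, differed by 1.18-fold between diets in F/F.

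Of the related genes at least 2-fold different between genotypes, 4 were higher in LKO on HFD. Cyp4a12a had 26.9 (F/F) and 32.0 (LKO) with chow, then 6.59 (F/F) and 16.2 (LKO) with HFD, and Cyp4a12b, a close copy of it, had 51.4, 53.5, 12.2 and 29.4. In both the F/F HFD array was lowest, as in the members of this family, whereas the chow arrays were close. Cyp4f18 (log2 difference 1.15) and Cpt1b, the muscle form of the carnitine palmitoyltransferase (1.06), were dim, with at most 1.74 and 0.354.

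The other 3 were higher in LKO on chow. Cidec, a lipid droplet protein, had 11.4 (F/F) and 27.7 (LKO) with chow, then 56.4 (F/F) and 39.8 (LKO) with HFD. Pparg, a further PPAR that drives lipid storage, had 3.68, 7.78, 9.95 and 7.46, and Abcd2, a peroxisomal transporter, 0.100, 0.240, 0.685 and 0.598. All 3 were lowest on F/F chow and highest on F/F HFD, the reverse of Pdk4. The summed signal of 7 adipocyte markers had the same lowest and highest arrays, with 15.3, 30.9, 57.9 and 27.1, but 4 of the 7 were lower in LKO on chow, and Adipoq, the adipocyte hormone, had 0.314, 0.151, 0.0993 and 0.154. The part of fat cells in these values was not tested.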

How the data were processed

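Total RNA of mouse liver was labelled with Cy3 and hybridised to Agilent SurePrint G3 arrays, 1 per condition; the labels and the methods name different RNA kits. The deposited intensity is the background-subtracted spot signal of Agilent Feature Extraction 12.0.3.1 (from the submitters' processing notes), with no normalization between arrays. Their table of values holds the same processed intensity times 1 factor per array (2.60, 2.63, 2.41 and 2.10, with column medians of 34.5, 33.2, 36.1 and 36.0 for F/F and LKO on chow, then F/F and LKO on HFD). It is neither logged nor centred, and how the factors were made is not given in the sources used here.

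From the deposited intensity, log2 minus the 75th percentile of the 59305 spots per array that are not controls was computed (Python 3.11.15, pandas 2.3.3, numpy 2.4.6). Spots of one probe were averaged without outlier spots. Of 56605 probes, 33767 (59.7%) were matched by accession to 23462 genes of the RefSeq table for GRCm38.p6, and the probe with the highest mean stood for a gene. Where 1 of the arrays compared was not well above background, the difference is a bound against the lowest signal well above background, which applied to no member. A difference was counted at 2-fold and 1.5-fold, and the percentages of all genes past the same fold are given beside the members.

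Values on all 4 arrays are given for each member at least 1.5-fold different in a comparison and for Ppara, Cpt1a, Acadm, Hadha and Ehhadh. Of the related genes, those at least 2-fold different between genotypes are named, with a few fixed by name (Fgf21, Angptl4 and others that are not reported here). Crat, Acot3, Acot5, Hacl1, Plin5, Ncoa1 and others outside this rule were named after their values were seen. The members and lists were chosen with earlier results of these data known. The order shared by 6 members, the promoter match at 10 or more of the 12 bases and the table's own scaling were added after values were seen. The steps were tested on simulated data. Alternatives were normexp background correction with offset 50 and quantile normalization (limma 3.58.1, R 4.3.3), the percentile over bright probes, the deposited table, the mean of all probes, other filters and other folds. A comparison of protein sequences between related members was planned and not run. Figures were drawn with matplotlib 3.10.9.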

Additional observations from a re-analysis of the deposited data

Results flagged for a closer look

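For 2 members the genotype difference had opposite signs on the 2 diets, each at least 1.5-fold, in single arrays, and the difference was not tested. LKO minus F/F of Pdk4 was -1.002 on chow and 0.87 on HFD, 1.87 apart on the log2 scale. LKO minus F/F of Acot2 was -0.72 on chow and 1.07 on HFD, 1.79 apart, which is by construction also the distance between its diet differences of -0.67 in F/F and 1.12 in LKO. Pdk4 and Acot2 each have 1 probe, printed once.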

How the results depend on the processing

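No paired analysis was possible because there is only 1 array per condition and nothing was tested. Of 720 values of single members under the 5 settings that can move a member, 521 moved by less than the SD of replicate spots and 61 changed sign. Of these 61, 15 concern LKO minus F/F on chow, 2 the same on HFD, 11 the diet in F/F and 33 the diet in LKO. The 17 genotype values that changed sign had been within 0.038 of 0, and the members lower in LKO on chow became 25 with quantile normalization and with own scaling. For HFD minus chow in LKO, Hadh ranged from -0.08 to 0.07 and Ehhadh from -0.07 to 0.08. In 16 of the 61, all of them diet differences, the value had been larger than that SD and moved by more than it. With quantile normalization, HFD minus chow in F/F became 0.038 for Acaa2, 0.041 for Etfb and 0.057 for Etfdh, and in LKO 0.070 for Acadm, 0.030 for Acaa2, 0.00551 for Eci1, 0.13 for Decr1, 0.051 for Hsd17b4 and 0.18 for Pex11a. With the table's own scaling it became 0.016 for Hadha and 0.010 for Etfdh in F/F, and 0.013 for Acadm, 0.034 for Hadha, 0.018 for Decr1 and 0.053 for Pex11a in LKO. With normexp it became 0.00561 for Pex11a in LKO.

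The median diet difference of the members became 0.10 (quantile) and 0.072 (own scaling) in F/F, and -0.013 (quantile), -0.11 (percentile over bright probes) and -0.051 (own scaling) in LKO. The count at least 2-fold lower in LKO on chow became 1 with normexp and with quantile. At least 2-fold higher on HFD in F/F became 1 with normexp, quantile, the percentile over bright probes, the mean of all probes and own scaling. At least 2-fold lower on HFD in LKO became 0 with normexp, quantile, the percentile over bright probes and own scaling. By construction, a 1.5-fold threshold gave 4 members lower in LKO for chow, 4 higher with 2 lower in LKO for HFD, 3 higher on HFD in F/F and 2 lower on HFD in LKO. A 4-fold threshold gave 0 lower in LKO on chow, 0 higher in LKO on HFD, 2 lower on HFD in F/F and 0 in either direction on HFD in LKO. The cause of the other changes was not tested. No saturated or background-level signal limits the members; the number of arrays does.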
